A study of Mus musculus with 4 samples.

Results

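The genes described here are 10 mouse genes of the unfolded protein response and the ATF4 stress response: Atf4, Atf5, Atf6, Ddit3, Xbp1, Hspa5, Asns, Chac1, Trib3 and Herpud1. They were chosen by gene symbol, out of 13887 symbols that the deposited tables hold together. Liver RNA of wild-type mice was compared with liver RNA of Fto knockout mice, both of strain background C57/Bl6, taken as liver biopsy. Each genotype was measured in a miCLIP immunoprecipitate, made by crosslinking RNA to an antibody against methylated adenosine (labelled 6mA-IP), and in input RNA, which gives 4 groups with 3 replicates stated for each. The labels give no age, sex, feeding state or stress treatment, and leave unsaid in which cells Fto was lost. Whether the replicates came from different mice is not stated either, so the p-values describe the spread among these samples alone, and part of it may be technical. Input rows covered 9 of the 10 genes, all but Chac1. Immunoprecipitate rows covered 5 of them, Atf5, Atf6, Hspa5, Herpud1 and Trib3, in 7 transcripts. Atf4, Asns, Ddit3, Xbp1 and Chac1 were not among the immunoprecipitate transcripts analysed here.

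The unfolded protein response is how a cell answers an overload of unfolded protein in the endoplasmic reticulum (ER), a frequent demand on hepatocytes, which secrete most plasma proteins. It has a branch through the membrane-bound factor ATF6, which is cut free to enter the nucleus, a branch through the nuclease IRE1 (gene Ern1), which splices Xbp1 mRNA into its active form, and a branch through the kinase PERK (gene Eif2ak3), which slows translation and raises translation of ATF4. Other kinases that sense lack of amino acids, heme or viral RNA also lead to ATF4, so its target genes report a wider stress response. Much of this control lies in translation, splicing and proteolysis, so RNA levels of Atf4, Xbp1 and Atf6 are not measures of the factors' activity. FTO removes methyl groups from adenosines in RNA, both from N6-methyladenosine inside the transcript and from N6,2'-O-dimethyladenosine (m6Am) beside the cap, and the antibody recognises both. Methylated adenosine near the start of Atf4 mRNA is known from other work as a target of FTO that bears on ATF4 translation.

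Sequence around the starts of these genes was searched for elements known to bind the factors of the branches. RefSeq promoter windows (build GRCm38.p6, 250 bases before to 50 after each start) were found for 9 of the 10 genes, all but Atf6, with a pair of starts for Atf5. Both strands were searched for the ATF4 element CARE, spelled TGATGNAA, and for the ER stress elements ERSE, spelled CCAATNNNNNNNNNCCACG, and ERSE-II, spelled ATTGGNCCACG, which ATF6 and XBP1 bind. A match was found in 5 of the 9 genes, Hspa5, Herpud1, Asns, Chac1 and Trib3, and in none of the windows of Atf4, Atf5, Ddit3 and Xbp1. The Hspa5 and Herpud1 promoters are shown because they hold the ER stress elements, here in capitals, from 150 bases before the start to the base before it. The stretches are chr2:34771940-34772089 and chr8:94386279-94386428, both on the plus strand. In Hspa5 the capitals mark the ERSE, and in Herpud1 they mark a CARE on the other strand and then the ERSE-II.
Hspa5: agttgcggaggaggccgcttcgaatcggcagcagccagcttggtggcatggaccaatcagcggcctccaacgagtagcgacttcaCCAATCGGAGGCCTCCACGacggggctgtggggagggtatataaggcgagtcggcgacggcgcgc
Herpud1: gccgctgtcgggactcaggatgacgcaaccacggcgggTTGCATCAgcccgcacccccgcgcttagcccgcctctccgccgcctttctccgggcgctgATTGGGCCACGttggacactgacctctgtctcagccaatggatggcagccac

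The other CARE matches lay in Asns, Chac1 and Trib3, shown with the 8 matching bases in capitals because Asns and Trib3 had, with Herpud1, the lowest input fold changes of the set. They lie at chr6:7693214-7693243 (minus strand), chr2:119351038-119351067 (plus strand) and chr2:152344028-152344057 (minus strand). The match begins 23 bases before the start in Asns and 193 bases before it in Chac1, and in Trib3 it begins at base 15 of the transcript. In Chac1 and Trib3, as in Herpud1, the element lies on the strand opposite to the gene. The capitals there are thus the reverse complement of the spelling above.
Asns: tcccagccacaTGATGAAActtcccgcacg
Chac1: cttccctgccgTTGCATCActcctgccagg
Trib3: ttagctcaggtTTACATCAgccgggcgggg

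The first base of the transcript is shown in capitals for the genes with immunoprecipitate rows and a RefSeq window, because m6Am forms only where that base is A. Each stretch has 15 bases on either side of the start: chr2:34772075-34772104 for Hspa5 and chr8:94386414-94386443 for Herpud1 on the plus strand, and chr2:152344046-152344075 for Trib3, chr7:44816644-44816673 for Atf5 start 1 and chr7:44815644-44815673 for Atf5 start 2 on the minus strand.
Hspa5: tcggcgacggcgcgcTcgatactggccgag
Herpud1: atggatggcagccacAgagagcgctatctg
Trib3: ctgggcgtcagcagcAgattagctcaggtt
Atf5 start 1: ggcgcggagggatccAggcaagcccgcgct
Atf5 start 2: tttagaagtcaccaaAatttttaagggaag

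Fto was checked first, since it is the deleted gene. The authors' deposited table placed Fto at −1.49 in the input, as log2 fold change (SE 0.27, adjusted p = 3.52e-04 by the authors' DESeq2 test), and the direction of the input table, which its header does not state, was read from it. The immunoprecipitate was read the same way, as knockout over wild type. Read the other way, all its signs turn. Which term its fold changes estimate is not stated either, so that reading is an assumption. All 8 hepatocyte markers were found in the input, with means from 762 to 84262. Markers of other liver cells were found as well, 6 of 6 for macrophages, 5 of 5 for endothelial cells and 5 of 5 for stellate cells, with means up to 335 and none called. Further markers found were 4 of 4 for cholangiocytes, 2 of 4 for lymphocytes, 2 of 3 for neutrophils and 1 of 4 for pancreatic acinar cells, none called. The lymphocyte and neutrophil medians were 0.22 and 0.33. All 3 red cell markers lay below 0, with a median of −0.48, and Alas2, the heme synthesis gene of red cells, stood at −0.99 (SE 0.29, p = 4.92e-04, adjusted p = 0.443 by the authors' DESeq2 test) in the authors' deposited table; the part of these markers in the results was not tested. In such bulk tissue fewer cells of a type and less RNA per cell cannot be told apart.

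In input RNA none of the 9 measured stress response genes was called changed between knockout and wild-type liver by the authors' DESeq2 test. Log2 fold changes ran from −0.45 for Asns to 0.33 for Hspa5 around a median of 0.02, beside a median of 0.02 over all 12883 genes in the authors' deposited table. The authors' adjusted p was 0.9998 for each of the 9, and 0 had an unadjusted p under 0.05. Over all input genes with a p, 0.0389% were called and 2.21% had an unadjusted p under 0.05, so a count of 0 among 9 genes is near that background. Of the 9, 5 stood above 0, beside 53.5% of all genes. Whether the authors shrank the fold changes towards 0 is not stated. Over all input genes they ran from −1.49 to 1.36, with an SD of 0.23 that is below their median SE of 0.28. Shrunken estimates show such a pattern, so the sizes given here are likely less than the ratios of the group means. Values of single libraries were not analysed here.

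Atf6 and Xbp1, which encode the transcription factors of the ATF6 and IRE1 branches, showed the smallest differences of the 9. Atf6, the membrane-bound sensor itself, stood at 0.02 (SE 0.22, p = 0.943) at a mean normalized signal of 188, the authors' average of scaled counts over the libraries, in the authors' deposited table. Xbp1, whose spliced mRNA encodes the factor of the IRE1 branch, stood at 0.02 (SE 0.24, p = 0.933, mean 321) in the authors' deposited table. Spliced and unspliced Xbp1 are 1 row there, so splicing was not measured. Both genes lay near the middle of all genes, at percentiles 49.5 and 50.4 of the input fold changes.

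Among the ER stress targets, the chaperone and the degradation gene lay on opposite sides of 0. Hspa5, which encodes the main ER chaperone BiP, stood at 0.33 (SE 0.23, p = 0.148, mean 2182) in the authors' deposited table. Its 95% interval, taken as the fold change plus and minus the normal multiple of its SE, ran from −0.12 to 0.77. Herpud1, an ER membrane protein that helps to clear unfolded protein, stood at −0.27 (SE 0.28, p = 0.331, mean 686) in the authors' deposited table, with an interval from −0.81 to 0.27. The intervals of these genes overlap and each includes 0. Hspa5 ranked at percentile 92.6 of all input fold changes and Herpud1 at 10.3.

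In the ATF4 branch none of the factor or target genes was called changed. Each interval includes 0 and leaves room for a change within it. Atf4, the central transcription factor, stood at 0.13 (SE 0.27, p = 0.628, mean 172) in the authors' deposited table. Atf5, a related factor that is itself induced in this response, stood at 0.04 (SE 0.22, p = 0.871, mean 398) in the authors' deposited table. Ddit3, which encodes the death-promoting factor CHOP, stood at −0.05 (SE 0.30, p = 0.865) in the authors' deposited table, at a mean of only 9.94. Of the targets, Asns, the asparagine synthetase gene, had the lowest value of the set at −0.45 (SE 0.30, p = 0.131, mean 21.9) in the authors' deposited table. Its interval, from −1.04 to 0.14, includes 0, and its fold change ranked at percentile 2.34 of all genes. Trib3, a pseudokinase that dampens the response, stood at −0.29 (SE 0.30, p = 0.332, mean 8.46) in the authors' deposited table. Ddit3, Trib3 and Asns had the lowest means of the 9 and the widest intervals, with half-widths of 0.58 to 0.59, against 0.43 for Atf5 and 0.44 for Hspa5. Width did not follow the mean throughout the input, since Nck2 and Slc7a11, at means of 3.19 and 4.04, had SEs of only 0.243 and 0.245. If the estimates were shrunken, intervals at low means may be narrower than the data alone would give, which was not tested.

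**Figure D1:**
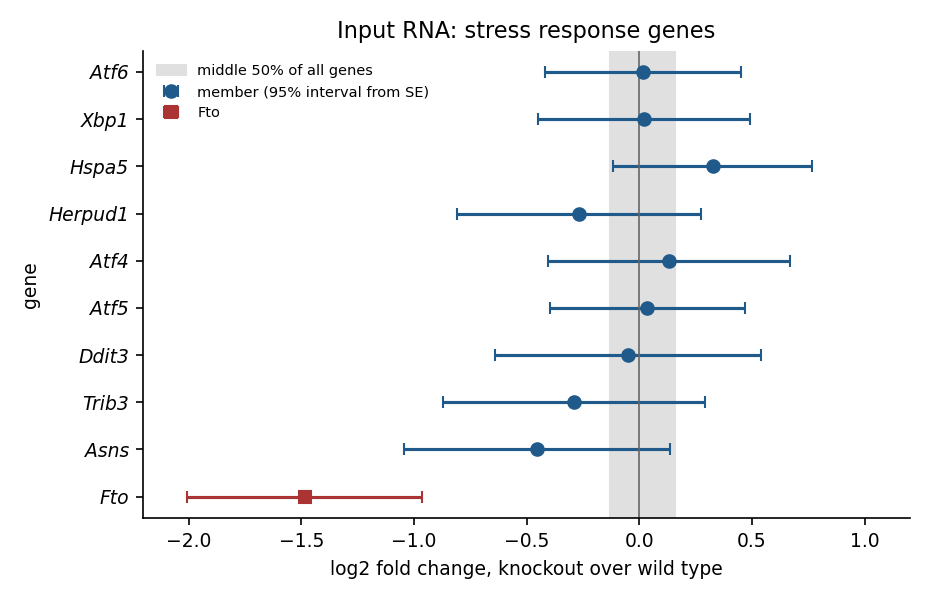
Log2 fold change in input RNA (x axis, knockout over wild type) for the 9 measured genes and Fto (y axis), with 95% intervals from the deposited SE and the middle 50% of all genes in grey. Each member's interval crosses 0, while that of Fto at −1.49 does not.

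Motif content and input values can be set side by side, a comparison made after the values were seen. The 3 measured genes with a CARE match in the window, Asns (−0.45), Trib3 (−0.29) and Herpud1 (−0.27), had the 3 lowest log2 fold changes of the 9 in the authors' deposited table. CARE matches were present in 3.97% of all 32851 promoter windows. Across the 277 input genes with such a match the median was 0.03, with 45.1% below 0, beside a median of 0.01 and 47.8% below 0 for genes with a window and no match. ERSE was present in 0.119% of windows and ERSE-II in 0.0365%. The 16 input genes with ERSE, Hspa5 among them, had a median of 0.05, and the 9 with ERSE-II, Herpud1 among them, had a median of 0.09. A match is a string of letters and no evidence of binding in these livers.

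The wider pathway was read from 8 lists with 139 genes, of which 126 were in the input. None was called by the authors' adjusted p, and an unadjusted p under 0.05 was reached by 1 gene above 0 and 1 below. Their median was 0.07, with 83 of 126 above 0, beside 53.5% of all genes. Secretory pathway genes controlled by XBP1, which bring new protein into and out of the ER, had the highest median of the lists at 0.20, with 17 of 20 above 0. Srp9, a subunit of the signal recognition particle, stood at 0.68 (SE 0.28, p = 0.0145) in the authors' deposited table. Sec23b of the vesicle coat stood at 0.47 (SE 0.24, p = 0.0533) and Ssr2 of the translocon at 0.42 (SE 0.25, p = 0.0841) in the authors' deposited table. All 3 had an adjusted p of 0.9998 in the authors' deposited table.

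ER folding and disposal genes had medians slightly above the 0.02 of all genes, and none was called. Chaperones and folding enzymes had a median of 0.08 over 21 genes, with 15 above 0, and Dnajb9, a BiP cochaperone, stood at 0.38 (SE 0.27, p = 0.152) in the authors' deposited table. The folding enzyme gene Txndc5 stood at 0.32 (SE 0.22, p = 0.145) in the authors' deposited table, next to the 0.33 of Hspa5. ER-associated degradation genes, the process Herpud1 belongs to, had a median of 0.07 over 18 genes, with 12 above 0. Among them Edem3, which trims glycans of misfolded protein, stood at 0.32 (SE 0.24, p = 0.175) in the authors' deposited table. Stress sensors and eIF2 kinases had the lowest median at −0.07, with 3 of 13 above 0. Among them Creb3l3, a liver factor processed like ATF6, stood at −0.47 (SE 0.22, p = 0.0371) in the authors' deposited table.

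Downstream of ATF4 the lists differed in how many genes lay above 0, and none held a call. Amino acid synthesis and uptake genes, the group Asns would join, had a median of 0.15 with 11 of 16 above 0, and Slc3a2, a subunit of amino acid transporters, stood at 0.49 (SE 0.26, p = 0.0602) in the authors' deposited table. Aminoacyl-tRNA synthetases, which charge tRNAs, had a median of 0.06 with 9 of 13 above 0. ATF4 and CHOP target regulators spread around a median of −0.0020, with 6 of 14 above 0, from Gdf15, a stress hormone, at −0.57 (SE 0.30, p = 0.0562) to the lipoprotein receptor gene Vldlr at 0.48 (SE 0.29, p = 0.0909) in the authors' deposited table. Heat shock genes of cytosol and mitochondria, which belong to another stress response, had a median of 0.12 with 10 of 12 above 0, and Hspa8 stood at 0.51 (SE 0.28, p = 0.0713) in the authors' deposited table.

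**Figure D2:**
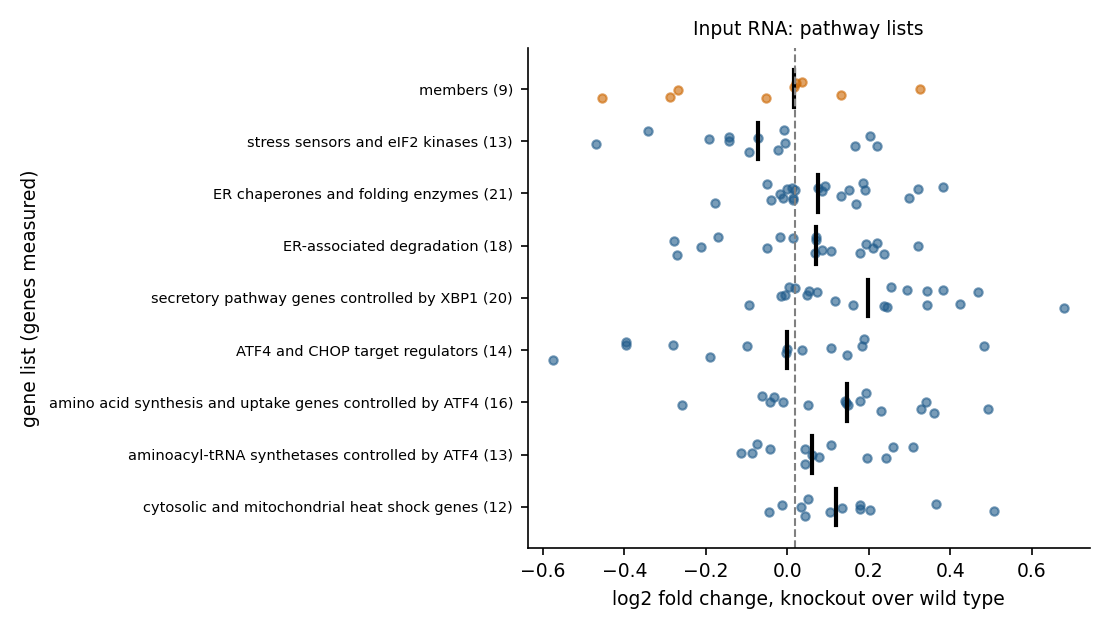
Log2 fold change in input RNA (x axis, knockout over wild type) for each gene of the members and of 8 pathway lists (y axis, genes measured in brackets); points are genes, black bars medians, and the dashed line is the median of all genes. The secretory list sits furthest right, with a median of 0.20, and the members range from −0.45 to 0.33.

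In the immunoprecipitate none of the 7 transcripts was called changed, and all 7 had log2 fold changes below 0. Of all 7569 transcripts there, 70.5% lay below 0, so the direction was that of most RNAs in the immunoprecipitate. Their median was −3.29, beside −1.59 over all transcripts. The authors gave an adjusted p to 3 of the 7, and 4.69% of all transcripts with an adjusted p were called. An unadjusted p under 0.05 was reached by 1 of the 7, beside 10.4% of transcripts with a p. After centring on the median transcript with a mean of at least 10, which lay at −0.82, 6 of the 7 were below 0, beside 54.9% of all. To 3 decimals that median, −0.819, was the most repeated value, shared by 842 of the 7569 transcripts and by none of the 7. Once centred, those transcripts fall on either side of 0 by later decimals alone, so the 54.9% depends in part on them. The immunoprecipitate p-values come from a chi-square statistic, and the square of fold change over SE differs from that statistic, so p and SE are separate readings of the authors' deposited table.

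The transcription factors Atf6 and Atf5 gave the lowest p-values. Atf6 (ENSMUST00000027974) stood at −6.75 (SE 2.70, p = 0.0626) in the authors' deposited table, at a mean of 5.17 and with no adjusted p. Its interval, from −12.03 to −1.46, is the only 1 of the 7 that does not include 0, whereas the authors' p for it did not reach 0.05. A log2 fold change of that size at so low a mean can rest on very few reads. The Atf5 transcript ENSMUST00000107893 stood at −3.29 (SE 1.82, p = 0.0300, adjusted p = 0.174, mean 11.7) in the authors' deposited table, by the authors' DESeq2 test. A further Atf5 transcript, ENSMUST00000047356, stood at −3.31 (SE 2.14, p = 0.266, mean 2.79) in the authors' deposited table. Transcripts of 1 gene can share reads, so the similar values of the Atf5 transcripts are not independent. Rows of different genes also had identical means and fold changes in places, so shares over all transcripts may count some signals more than once.

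Of the target genes, Hspa5 had the highest mean, though Herpud1 had the narrower interval, with a half-width of 2.53 against 3.00. Its transcript ENSMUST00000100171 had a mean of 68.1, at percentile 96.3 of all means, and stood at −0.06 (SE 1.53, p = 0.863, adjusted p = 0.992) in the authors' deposited table. An interval from −3.07 to 2.94 shows how little even that depth fixes. Its other transcript, ENSMUST00000028222, stood at −1.81 (SE 2.37, p = 0.414, mean 5.81) in the authors' deposited table. Herpud1 (ENSMUST00000034220) stood at −0.998 (SE 1.29, p = 0.866, adjusted p = 0.992, mean 10.5) in the authors' deposited table, with an interval from −3.53 to 1.53. Trib3 (ENSMUST00000040312) had the lowest mean, 2.04, and stood at −6.71 (SE 4.25, p = 0.131) in the authors' deposited table, with an interval from −15.05 to 1.63. Atf6 and Trib3 thus had the largest negative values, and Herpud1 and the main Hspa5 transcript the values nearest to 0.

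**Figure D3:**
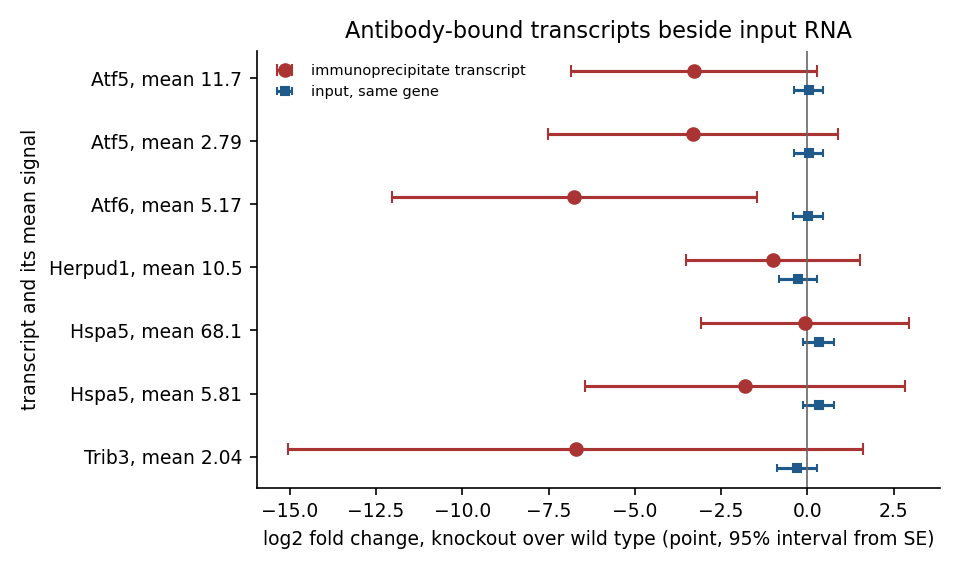
Log2 fold change (x axis, knockout over wild type) of the 7 immunoprecipitate transcripts (red circles) and of the same genes in the input (blue squares), with 95% intervals from the deposited SE; the y axis names each transcript's gene and mean normalized signal. Immunoprecipitate intervals are several times wider than those of the input, and that of Atf6, from −12.03 to −1.46, does not reach 0.

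Among transcripts with a p, a boundary in mean signal separated those with an adjusted p from those without. The lowest mean with an adjusted p was 6.95 and the highest mean with a p alone was 6.94, both from the authors' deposited table. A further 723 transcripts had neither p nor adjusted p, and 212 of them lay above that boundary, but none was of the 5 genes. The Atf6, Trib3, minor Atf5 and minor Hspa5 transcripts lie under that boundary, with means from 2.04 to 5.81. Herpud1, the larger Atf5 transcript and the larger Hspa5 transcript lie above it. For the deepest, Hspa5, a change smaller than 3.00 on the log2 scale was not detectable from the fold change and its SE. By a Wald p from fold change and SE, adjusted over the table by Benjamini-Hochberg, 0 of the 7 passed and Atf6 came closest at an adjusted p of 0.0847, beside 10.8% of all transcripts passing.

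**Figure D4:**
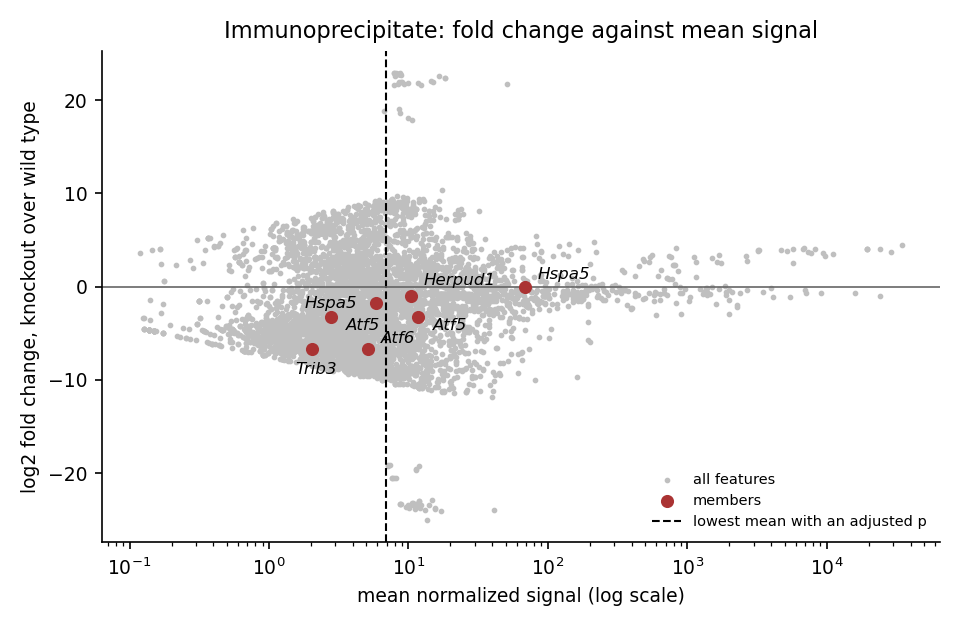
Log2 fold change (y axis, knockout over wild type) against the authors' mean normalized signal (x axis, log scale) for all 7569 immunoprecipitate transcripts in grey and the 7 transcripts of the stress response genes in red; the dashed line marks the lowest mean with an adjusted p, 6.95. Members with large negative values, Atf6 and Trib3, lie left of the line.

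First bases can be set beside these values for 4 genes only, of which Hspa5 alone does not start with A. Of the 9 genes with a RefSeq window, Atf5, Asns, Trib3 and Herpud1 have A at a start, Hspa5 has T, and 34.4% of all windows have A. Immunoprecipitate values of genes with A ran from −6.71 for Trib3 to −0.998 for Herpud1 in the authors' deposited table, and those of Hspa5 were −1.81 and −0.06. By the transcript of highest mean, Hspa5 lay above the other 3 genes, whose intervals overlap its own. Over all 2075 transcripts of genes with A at a start the median was −1.67, beside −1.76 for all transcripts of genes with a window. Starts were taken per gene, since transcripts were not matched to RefSeq starts, and RefSeq starts may not be those used in these livers.

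The wider pathway lists held 72 immunoprecipitate transcripts of 60 genes, with a median of −1.79 beside −1.59 for all, and 20 of 72 above 0. There was 1 call among the 24 with an adjusted p, or 4.17%, near the 4.69% of all transcripts. Hspb1, a small heat shock protein gene, was lower at −9.81 (SE 2.37, p = 0.00101, adjusted p = 0.0349, mean 8.89) in the authors' deposited table by the authors' DESeq2 test, and it belongs to the cytosolic heat shock list rather than to the ER response. That call was lost when the authors' p was adjusted by Benjamini-Hochberg over every transcript with a p (adjusted p = 0.0870) and with 1 transcript per gene. In that list Hspa1a stood at −3.20 (p = 0.0309) and Hspd1 of the mitochondria at 7.86 (p = 0.0387) in the authors' deposited table, neither called. ER genes with an unadjusted p under 0.05 lay on both sides. The translocon gene Sec61g stood at 7.11 (SE 2.05, p = 0.0374, adjusted p = 0.194), while its partner Sec61b stood at −4.37 (SE 1.51, p = 0.0227, adjusted p = 0.154) in the authors' deposited table. Derl2, part of the ER retrotranslocation machinery, stood at −7.84 (p = 0.0102, adjusted p = 0.109) in the authors' deposited table. Fkbp2, an ER prolyl isomerase, stood at −8.88 (p = 0.0283), and the serine synthesis gene Psph at −4.72 (p = 0.0448) in the authors' deposited table. In all, 2 list transcripts above 0 and 6 below had a p under 0.05, of 63 with a p. That is 12.7%, beside 10.4% of all transcripts, where 129 lay above 0 and 583 below.

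Antibody-bound RNA was then set against RNA level, to ask whether any of these genes changed in the immunoprecipitate beyond its input. The difference of the log2 fold changes was tested over the 3966 genes in both tables by a normal test on the summed squared SEs, with Benjamini-Hochberg adjustment and the transcript of highest mean standing for a gene. None of the 5 genes passed, beside 11% of all genes, and 1 had an unadjusted p under 0.05. That gene was Atf6, with a difference of −6.77 (SE 2.71) at an adjusted p of 0.0798. Differences were −6.43 (SE 4.27, adjusted p = 0.331) for Trib3 and −3.33 (SE 1.83, adjusted p = 0.231) for Atf5. Herpud1 differed by −0.73 (interval −3.32 to 1.86) and Hspa5 by −0.39 (interval −3.43 to 2.65). With the immunoprecipitate direction turned, the differences were 1.27 for Herpud1, −0.26 for Hspa5, 6.73 for Atf6, 7.002 for Trib3 and 3.25 for Atf5, and none passed (lowest adjusted p = 0.0816 by the same normal test over all genes). As first read, the intervals of Herpud1 and Hspa5 are wide enough to hold sizeable changes in either direction. Those of Trib3 (−14.78 to 1.93) and Atf5 (−6.91 to 0.26) reached less far above 0. That of Atf6, from −12.07 to −1.46, did not include 0, although Atf6 did not pass after adjustment. The 5 differences thus do not show that bound RNA and input moved alike. The test treats the SEs of the tables as unrelated to each other. How the fold changes were estimated is not stated, nor which term those of the immunoprecipitate stand for. If that term was already relative to input, the difference takes off the input change again. Over all rows the fold changes ran from −1.49 to 1.36 in the input and from −25.05 to 22.89 in the immunoprecipitate. Input statistics equalled fold change over SE, and immunoprecipitate statistics did not equal its square. The differences, and the 11% beside them, may thus set unlike estimates against each other.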

How the data were processed

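Liver input RNA and miCLIP immunoprecipitates of wild-type and Fto knockout mice were deposited as comparison tables, 1 per kind of RNA. Per the submitters' processing notes, STAR, bedtools 2.25.0 and DESeq2 were used with mm10, without a role for each; the sources used here do not say how reads were counted or which model was fitted. Per the file headers, each row has the authors' mean normalized signal, the authors' log2 fold change and its SE on the log2 scale, the authors' test statistic (a score), and the authors' p-value and adjusted p-value. No depth per library could be read from them. Input statistics equalled fold change over SE, while immunoprecipitate p-values were chi-square tails with 1 degree of freedom.

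Rows were taken by gene symbol. Calls are the authors' adjusted p under 0.05, over all rows of the authors' adjustment. Intervals, Benjamini-Hochberg adjustments and the difference between tables were computed in Python 3.11.15 with scipy 1.17.1. The difference test was also run on data simulated with the deposited SEs, which checks the computation and cannot show whether those SEs hold. Alternatives were another adjustment, a Wald p, centring, a minimum mean of 10 and 1 transcript per gene. Named genes were Fto, the 10 stress response genes, and up to 3 genes with the lowest p plus any called gene of each list and table. The red cell marker Alas2 was named outside that rule. Lists were matched through current symbols, which 12869 of 12883 input identifiers had. The genes, lists and rules were chosen with earlier results of these data known, and the motif comparison after the values were seen. Reference sequences are from RefSeq, GRCm38.p6.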

Additional observations from a re-analysis of the deposited data

How the results depend on the processing

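None of the 9 input genes and none of the 7 immunoprecipitate transcripts was called under any alternative run: adjustment over the whole table, a Wald p from fold change and SE, centred fold changes, a minimum mean of 10 (which leaves 7 and 3 of them) and, in the immunoprecipitate, 1 transcript per gene. The difference between the tables likewise passed for 0 of the 5 genes as read, when centred (lowest adjusted p 0.154), with the immunoprecipitate direction turned (0.0816) and with means of 10 or more on both sides (0.203, over 3 genes). Centring turned the sign of 1 value, that of the larger Hspa5 transcript, to 0.75. The 1 call among the wider lists in the immunoprecipitate, Hspb1, became 0 when adjusted over the whole table and 0 with 1 transcript per gene, and 5 list transcripts passed by a Wald p on centred fold changes. Over the whole immunoprecipitate table the authors' calls numbered 110, against 34 adjusted over the table, 819 by the Wald p, 660 by the Wald p on centred fold changes, and 22 with 1 transcript per gene; the cause was not tested. In both tables together 436 genes passed the difference test, and 211 of 808 at a mean of at least 10. No paired analysis was possible because the tables hold no values of single replicates, and for the same reason no replicate was left out. In the immunoprecipitate 4 of the 7 transcripts lay under a mean of 6.95 and had no adjusted p. What sets the width of the immunoprecipitate intervals was not tested.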
